A study of Mus musculus with 3 samples.

Results

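Of the 13823 HBO1 peaks deposited for Oct1 deficient mouse embryonic stem cells (ESCs), 1816 covered the start of a protein-coding transcript and are described here. A peak was taken when it lay on chromosomes 1 to 19 and its interval held at least 1 transcription start site (TSS) of a coding transcript in GENCODE vM21. Peaks with a summit in a part of chromosome 3 that starts at 100 Mb and is 41 Mb long were left out. The covering peaks made up 13.1% of the whole list and 14.4% of the 12637 peaks considered on these chromosomes (exact Clopper-Pearson 95% interval 13.8 to 15.0%, which covers counting error only, as do all intervals given here). Another 27 peaks covered a coding TSS on chromosomes X and Y, and 43 did so in the part of chromosome 3 that was left out.

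The study performed ChIP-seq for HBO1 in ESCs that lack Oct1, the Oct4 paralog encoded by Pou2f1, to find where an Oct4 cofactor complex associates with the genome. The cells of all 3 samples were Oct1 deficient, grown with ascorbic acid, the GSK3 inhibitor CHIR99021 at 3 µM and the MEK inhibitor PD0325901 at 1 µM, and fixed with 1% formaldehyde. HBO1 was precipitated in 2 samples, and 1 more sample was input, chromatin sheared but not precipitated. The authors deposited 1 peak list, read here as pooling both ChIP samples, so no spread between the replicates was available here, peaks are not replicates, and no test was made. The genotype is that of the labels and of the study's methods, while the title of a supplementary sheet of these peaks names wild-type ESCs. An antibody label of the second ChIP sample reads HBO2, and the sample was treated as HBO1 after its title. ESCs were depleted of feeder cells before use, and because expression was not measured in this series, the cell type could not be checked against expressed markers.

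HBO1, also named KAT7, is a histone acetyltransferase of the MYST family that works in complexes with an adaptor protein, either a JADE or a BRPF protein, together with ING4 or ING5 and MEAF6. The adaptor directs acetylation to histone H4 or histone H3. Acetylated histones are found at active promoters, where RNA polymerase II starts transcription at the TSS and the first nucleosome lies just downstream of it. Many mammalian promoters lie in CpG islands, stretches rich in G, C and the dinucleotide CpG, and such promoters often start transcripts at several positions.

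The promoter bases of 7 covered genes are shown first, as examples of the letters counted further on. They belong to genes of the HBO1 complex, of related acetyltransferases, of pluripotency and of RNA polymerase II. Each line gives the 120 bases before the outermost coding TSS inside the peak, 5′ to 3′ in the direction of transcription, from GRCm38, the assembly that mm10 names. None of them lies in an annotated UTR, and some reach past the edge of the peak. Capitals mark the GC box (GGGCGG), the CCAAT box (CCAAT) and the TATA box (TATAAA) on either strand.
Sox2: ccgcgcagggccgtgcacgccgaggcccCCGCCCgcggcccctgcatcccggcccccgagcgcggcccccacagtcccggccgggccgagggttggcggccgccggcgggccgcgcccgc
Kat7: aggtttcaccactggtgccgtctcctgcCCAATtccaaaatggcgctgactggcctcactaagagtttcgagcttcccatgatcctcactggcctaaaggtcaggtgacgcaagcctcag
Jade1: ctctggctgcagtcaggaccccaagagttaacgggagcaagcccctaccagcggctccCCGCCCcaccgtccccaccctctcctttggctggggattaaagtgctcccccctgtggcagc
Brd1: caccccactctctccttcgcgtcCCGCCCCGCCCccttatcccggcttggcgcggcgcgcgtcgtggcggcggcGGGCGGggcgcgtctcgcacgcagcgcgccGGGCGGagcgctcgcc
Polr2a: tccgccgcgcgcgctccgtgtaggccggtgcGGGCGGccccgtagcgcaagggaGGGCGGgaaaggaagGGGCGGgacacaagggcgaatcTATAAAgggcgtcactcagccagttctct
Kat6b: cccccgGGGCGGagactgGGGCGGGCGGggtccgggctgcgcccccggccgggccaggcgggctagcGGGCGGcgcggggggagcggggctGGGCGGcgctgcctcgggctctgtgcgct
Rif1: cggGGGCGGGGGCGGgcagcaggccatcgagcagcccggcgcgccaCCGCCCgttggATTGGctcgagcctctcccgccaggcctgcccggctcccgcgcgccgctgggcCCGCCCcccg
The windows lay at chr3:34650285-34650404 on the plus strand for Sox2, chr11:95310247-95310366 on the minus strand for Kat7, chr3:41563249-41563368 on the plus strand for Jade1, chr15:88734234-88734353 on the minus strand for Brd1, chr11:69758638-69758757 on the minus strand for Polr2a, chr14:21499650-21499769 on the plus strand for Kat6b and chr2:52072712-52072831 on the plus strand for Rif1. The Jade1 window also overlaps an exon of the antisense RNA gene Gm31266. Kat6b held 5 GC boxes, Brd1 and Rif1 held 4, Polr2a held 3, Sox2 and Jade1 held 1, and Kat7 held none but had a CCAAT box.

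For each peak the authors' caller gave a fold enrichment, which is the ratio of ChIP signal to the local background at the summit, and a −log10 q, which is larger the less the peak is expected from background. Across the covering peaks the fold enrichment had a median of 2.67 (95% interval 2.63 to 2.70) and ran from 1.61 to 18.4, with quartiles of 2.29 and 3.28. The −log10 q had a median of 9.21 (8.79 to 9.60) and ran from 2.30 to 167. In 815 covering peaks, 44.9%, the −log10 q was 10 or more, against 24.5% of all peaks considered. Only 52 covering peaks, 2.86%, fell under 3. The median covering peak was 514 bp wide, the narrowest 276 bp and the widest 3107 bp. The whole peak list had the same lowest −log10 q, 2.30, and the same smallest width, so these are limits of the list. A wide interval holds a TSS more easily, so width is in part what the rule used. Width rose with −log10 q, as given below, so the higher −log10 q of covering peaks is not independent of the rule either.

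The covering peaks were set beside peaks close to a coding TSS that did not reach it, and beside peaks far from any TSS. There were 2288 peaks that lay within 1 kb downstream of a coding TSS without covering one, with a median fold enrichment of 2.48, a median −log10 q of 7.48 and a median width of 418 bp. Upstream there were 303, with medians of 2.73, 6.69 and 376 bp. The 3920 peaks over 10 kb from any TSS had a higher median fold enrichment, 4.59, a lower median −log10 q, 6.21, and a median width of 340 bp. These sets differed in input depth. The 1 kb around the summit held a median of 86 input read ends in covering peaks, 88 in the downstream set, 65 in the upstream set and 10 in the distant set. In the class of 60 to 99 input read ends, the 773 covering peaks had a median fold enrichment of 2.62, the 975 downstream peaks 2.44, the 104 upstream peaks 2.48 and the 243 distant peaks 2.37. In that class the median −log10 q was 9.33 in covering peaks, 7.37 downstream, 6.49 upstream and 6.75 in distant peaks. Under 30 input read ends, a class that held 3036 of the 3920 distant peaks, the median fold enrichment was 5.05 in distant and 4.58 in covering peaks, and the median −log10 q 6.13 and 7.61. The order of covering and distant peaks by fold enrichment thus differed between these classes of input, while covering peaks had the higher median −log10 q in both.

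The fold enrichment of covering peaks itself fell as the input rose. It had a median of 4.58 in the 175 covering peaks with under 30 input read ends, 2.96 in the 265 with 30 to 59, 2.62 in the 773 with 60 to 99 and 2.44 in the 587 with 100 to 149. The −log10 q did not fall with it, with medians of 7.61, 8.6, 9.33 and 9.55. Fold enrichment is a ratio over local background, and every peak had passed the caller's limit on q. Part of its fall with input may thus be built in, which was not tested.

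Within the covering peaks the signal was not centred on the TSS. The summit lay downstream of the covered TSS nearest to it in 1217 peaks, 67% (95% interval 64.8 to 69.2%), and upstream in 593, 32.7%. The median summit was 75 bp downstream (66 to 84 bp), with quartiles at 36 bp upstream and 162 bp downstream. The bin from 100 to 149 bp downstream held the most summits, 260, followed by that from 50 to 99 bp with 252. Within 100 bp on either side lay 783 summits, 43.1%. The intervals also reached farther downstream, but this is no separate support. The rule needed each interval to hold a TSS and left out peaks that ended short of one, which bounds both the reach and the summit position. They reached a median of 146 bp upstream and 340 bp downstream of the TSS, and 1318 peaks, 72.6%, reached farther downstream.

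**Figure D1:**
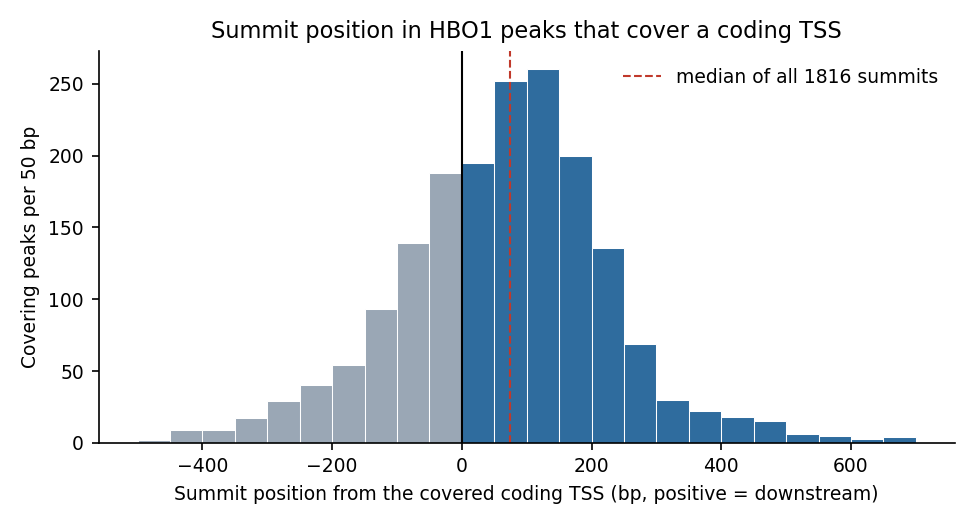
Position of the peak summit relative to the covered coding TSS, in bp on the x axis with downstream positive, against the number of covering peaks per 50 bp on the y axis; grey bars are upstream and blue bars downstream, and the dashed line is the median of 75 bp. The fullest bars stand between 50 and 149 bp downstream, and 21 summits lie outside the bins shown.

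The summit lay farther downstream in peaks of higher −log10 q. With the peaks split at the quartiles of −log10 q, the median summit from the lowest class to the highest was 45, 67, 88 and 111 bp downstream. The share of downstream summits was 62.4, 66.8, 68.9 and 70%, with intervals of neighbouring classes overlapping. Width rose with it, from a median of 394 bp through 473 and 564 to 664 bp, and its part in the shift was not tested. The median input was close in all 4 classes, at 81, 86, 90 and 85 read ends. Summits were downstream in 67.1% of the 529 peaks with a first exon under 100 bp and in 70.2% of the 289 with one of 400 bp or more, with overlapping intervals, and the median summit was at 63 and 119 bp. Read against the transcript of the covered TSS, 490 summits, 27%, lay in the untranslated part of the first exon, 441, 24.3%, in the first intron, 280, 15.4%, in the coding part of the first exon, and 12 elsewhere in the transcript. Of the 1217 downstream summits 453, 37.2%, were past the end of the first exon.

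Most covering peaks held 1 coding TSS position, 1108 or 61%, and 1 peak held 10. Coding TSSs of 2 or more genes, counted by gene identifier, were covered by 53 peaks, 2.92%, and at most 3 genes shared a peak. The peaks with 3 genes had their nearest TSS at Chtf8, a subunit of an alternative clamp loader, with a fold enrichment of 3.39, at Il4i1 with 2.68 and at Tmem203 with 2.37. The other such peaks covered 2 genes each. Of these, the first by −log10 q were at Taf1d, of the RNA polymerase I initiation machinery, and at the sorting nexin gene Snx5. Their fold enrichment was 5.45 and 3.85. A TSS lay within 10 bp of the peak edge in 114 covering peaks, and 105 other peaks ended within 10 bp of a coding TSS without covering it. A further peak had its summit within 2 kb of the covered TSS for 293 covering peaks, 16.1%, with 156 having one upstream, 163 downstream and 26 on both sides.

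At the level of genes, 1806 of 20450 coding genes had a covered TSS, 8.83% (95% interval 8.45 to 9.23%), and this share is the background for each gene list below. It was 4.02%, or 822 genes, when only peaks with a −log10 q of at least 10 were used, and 3.78%, or 774 genes, when each gene was represented by its outermost coding TSS alone. Coverage rose with the number of annotated TSS positions. Of 7563 genes with 1 coding TSS position 246 were covered, 3.25%, and the share was 6.60% with 2 positions, 13% with 3 or 4, 20.9% with 5 to 7 and 29.5% with 8 or more. Both ways of counting are given for the lists below.

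The promoters of covered genes were rich in G and C. In the 300 bp from 250 bp before the TSS, the median GC content was 69.3% for covered genes at the covered TSS and 55% for the 18644 other genes at their outermost TSS. Read at the outermost TSS in every gene, the medians were 64.3% for the 774 genes covered there and 55.3% for the rest, and among genes with 1 coding TSS position they were 61.2% and 53.7%. The share of genes covered was 0.624% below 45% GC, 7.90% at 60 to 65%, 12.5% at 65 to 70%, 23.0% at 70 to 75% and 44.2% at 75% or more. Counted at the outermost TSS it was 0.583%, 3.6%, 5.53%, 7.59% and 17.3% in these classes, a smaller rise. It was not steady, since the share at the outermost TSS was 4.08% at 55 to 60% GC, above the 3.6% of the next class, and in genes with 1 TSS position it was 4.82% at 55 to 60% and 2.62% at 60 to 65%. The input around the TSS rose with GC content too, from a median of 2 read ends per 1 kb below 45% GC to 106 at 75% or more, and their part in the number of peaks called was not tested. At 60 to 65% GC, among genes with enough input fragments to size, the median input was 67 read ends at the TSS of 225 covered genes and 75 at that of 2623 others, with median fragments of 248 and 250 bp. In this class the covered TSSs had the lower median input. Over all genes the order was the reverse, with 83 read ends in 1 kb at the covered TSS and 47 in other genes.

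**Figure D2:**
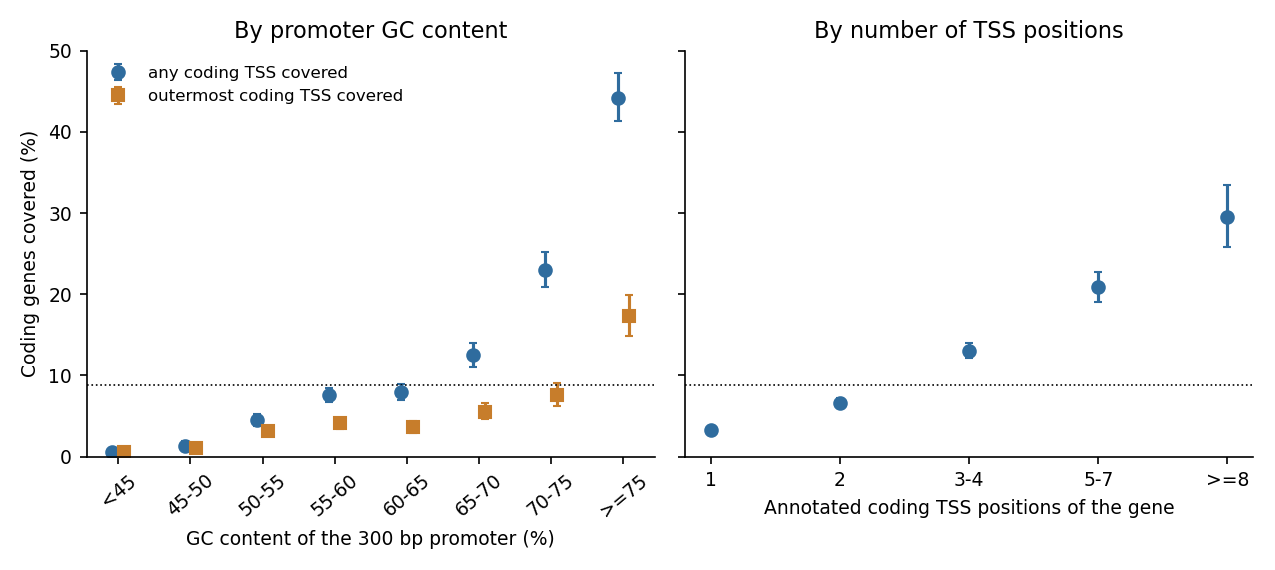
Share of coding genes covered, in percent, by GC content of the 300 bp promoter on the left and by the number of annotated coding TSS positions on the right; points are shares and bars exact 95% intervals, circles count any coding TSS, squares the outermost coding TSS, and the dotted line is the share of all coding genes, 8.83%. Coverage climbs to 44.2% in the class of highest GC content, or 17.3% by the outermost TSS, and to 29.5% in genes with 8 or more TSS positions.

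CpG density went with coverage within a class of GC content. In the 1 kb around the TSS the observed over expected CpG count had a median of 0.839 in covered genes and 0.534 in the others, and 0.818 against 0.460 in genes with 1 TSS position. A ratio of at least 0.6 with at least 50% GC, a common definition of a CpG-rich promoter, was met by 86.1% of covered and 43.0% of other genes. At 65 to 70% GC none of 37 promoters with a ratio under 0.4 was covered. From there the share rose from 5.76% of 243 promoters at 0.4 to 0.6, through 10.1% of 1009 and 17.1% of 817, to 23.4% of 64 at 1 or more. The median input in these classes rose alongside, from 73 through 86 and 97 to 104 read ends, and its part was not tested.

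Short sequence motifs were counted on both strands of the 300 bp promoter, with covered genes read at the covered TSS and the others at the outermost one. The GC box was in 71.9% of covered and 42.6% of other promoters, and in 45.2% of all. At 60 to 65% GC it was in 59.3% of the 226 covered and 72.2% of the 2633 other promoters, the opposite direction, with intervals that did not overlap. At 55 to 60% GC it was in 45.7% against 48.6%, and in genes with 1 TSS position at 60 to 65% GC in 63% of 27 against 71.9% of 1003, both with overlapping intervals. In genes with 1 TSS position of any GC content it was in 63.8% against 39.4%. The CCAAT box was in 22.0% against 39.3% of all promoters of the 2 kinds, in 29.6% against 39.6% at 60 to 65% GC, and in 31.7% against 39.5% in genes with 1 TSS position. The TATA box was in 4.98% against 13.2%, but in 13.4% against 16.4% in genes with 1 TSS position and in 6.19% against 4.94% at 60 to 65% GC, with overlapping intervals in both. The core of the ETS factors (CCGGAAGT) was in 7.59% against 4.59% of promoters and in 12.8% against 7.79% at 60 to 65% GC, where the intervals just overlapped, with 4.85% of all promoters holding it. In genes with 1 TSS position it was in 8.94% of 246 covered and 4.02% of 7317 other promoters. The core of YY1 (AAGATGGC) was in 5.20% against 2.83% overall and 7.52% against 3.91% at 60 to 65% GC, where the intervals overlapped. They also overlapped at 55 to 60% GC, with 13 of 247 against 122 of 3025 promoters, and in genes with 1 TSS position, with 3.66% against 2.75%. The octamer (ATGCAAAT), the classical site of Oct proteins, was in 10 covered promoters, 0.554%, against 315 others, 1.69%, and at 60 to 65% GC in 1 of 226 against 21 of 2633. The intervals overlapped in that class, at 55 to 60% GC, with 1.21% against 1.42%, and in genes with 1 TSS position, with 1.22% against 1.90%. The exact MORE, the more palindromic Oct factor recognition element (ATGCATATGCAT), was in 1 of all 20450 promoters, which was not covered. Each gene was searched at 1 TSS only. For Polr2a, where the study places MOREs upstream, this was an inner TSS. The 120 bases before its outermost covered TSS, shown above, held no exact MORE, and bases farther upstream were not searched. The count thus does not show that MOREs are absent near covered TSSs. These were 12 motifs compared, none with a test, and a match is a string of letters and not a bound site.

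**Figure D3:**
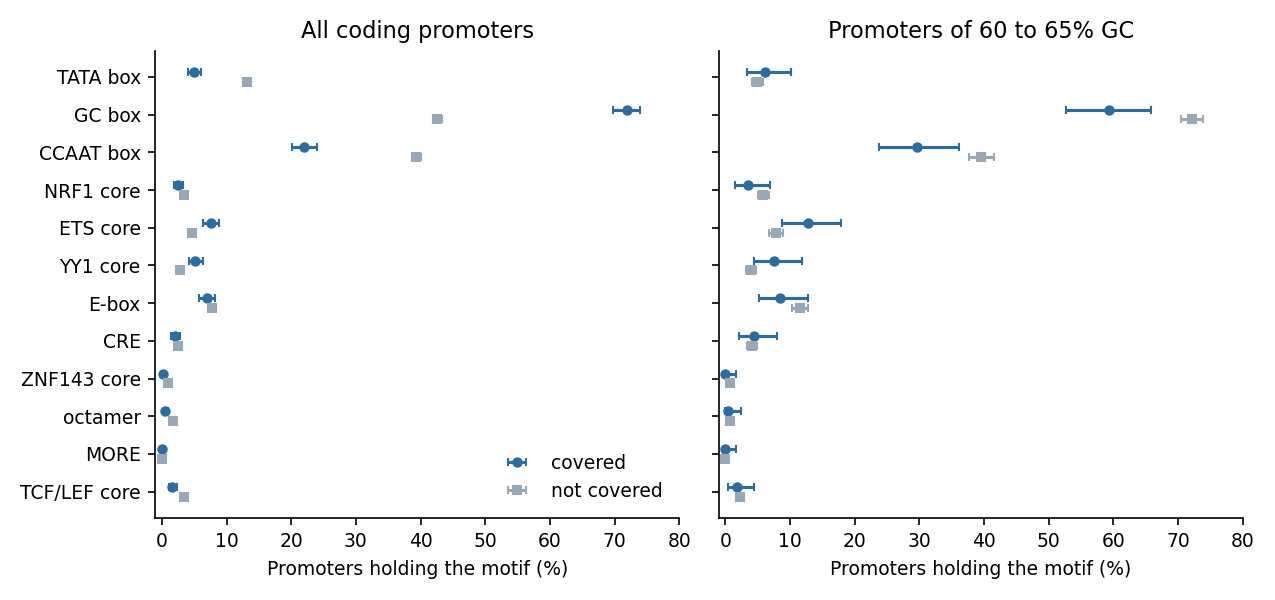
Share of promoters of 300 bp, in percent on the x axis, that hold each of 12 motifs on either strand, for all coding promoters on the left and for those of 60 to 65% GC on the right; circles are covered and squares uncovered promoters, with exact 95% intervals. The GC box stands at 71.9 against 42.6% on the left and at 59.3 against 72.2% on the right, while the ETS core is higher in covered promoters in both panels.

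Some promoters start coding transcripts of a pair of genes in opposite directions. Of the covering peaks 148, 8.15%, lay at a TSS with such a divergent partner within 1 kb. Among 1057 divergent pairs 13.3% had a covered TSS on at least 1 side. Only 1 side was covered in 102 of them and both in 39, and in 30 of these a single peak covered both. Among the 39 and the 30, the pair of Chtf8 and Utp4 and that of Ndor1 and Tmem203 were each counted more than once. Genes in divergent pairs were covered in 10.5% of cases and other genes in 8.64%, and at 60 to 65% GC the shares were 8.17 and 7.85% with overlapping intervals. The summit lay downstream of the nearest covered TSS in 70.9% of peaks at divergent promoters and 66.7% of the rest.

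Many covered TSSs were not the first of their gene. The outermost coding TSS was uncovered in 1032 of the 1806 covered genes. Of the 900 whose coding TSSs spanned at least 1 kb it was uncovered in 605, 67.2% (95% interval 64.0 to 70.3%), and in 103 genes the covered TSS lay over 10 kb from it. The farthest was in Rbfox1, which encodes a splicing regulator, where a TSS 1467615 bp inside the outermost one was covered with a fold enrichment of 3.52, a −log10 q of 4.75 and a summit 143 bp downstream. The phosphodiesterase gene Pde4d had 1248929 bp, with 2.46 and 7.86. Galntl6 had 1116050 bp between them, Zfhx3 772000 bp, Foxp1 492849 bp, Schip1 428689 bp, Kalrn 418099 bp, Magi1 370661 bp and Tenm4 351152 bp. Of these 9 genes only Schip1 had a −log10 q above 10, at 20.1, and its peak of 737 bp had 86 input read ends.

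Histone genes were frequent among the covering peaks of highest −log10 q. Of the 50 peaks with the highest value 16 were at canonical histone genes, which supply the histones packed onto newly replicated DNA, against 19 among all 1816. The first was at Hist2h2aa2 on chromosome 3, with a −log10 q of 167, a fold enrichment of 7.61 and 139 input read ends, of which 54.0% had a mapping quality under 20. The genes of variant histones H2afx, for H2A.X, and H3f3b, for H3.3, had values of 103 and 87.8, and the H3 genes Hist1h3e and Hist1h3h 101 and 83.6. The next genes in order were not histone genes. Ftl1, the ferritin light chain gene, had a −log10 q of 80.2 with a fold enrichment of 11.0 over 39 input read ends, Eef1a1, for a translation elongation factor, 75.6 with 5.88, and the glycolytic Gapdh 73.9 with 7.32.

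Canonical histone genes as a list had 19 of 67 members covered, 28.4% (95% interval 18 to 40.7%), and 17, or 25.4%, at the outermost TSS, against backgrounds of 8.83 and 3.78%. The median promoter GC content of the list was 45.3%, in a range where 1.36% of coding genes as a whole were covered. The input around the TSS differed, with a median of 64 read ends in the list and 7 in that range. Its part in the difference was not tested. By type, 6 of 18 H2A, 3 of 18 H2B, 3 of 12 H3, 6 of 13 H4 and 1 of 6 H1 genes were covered. All 19 peaks passed a −log10 q of 20, from 22.4 at Hist1h2ak to 167, with a median of 54.6. Their fold enrichment ran from 3.52 to 7.61 with a median of 5.55 and a median input of 59 read ends. In all 19 the summit lay in the coding part of the single exon, 161 to 303 bp downstream of the TSS, with a median of 233 bp against 75 bp over all covering peaks. Of the 48 histone genes without a covered TSS 41 had a peak summit within 1 kb of it, which in these dense clusters can be that of a neighbouring gene. Copies of these genes share much of their sequence, which makes the assignment of reads among them uncertain, and 4 of the 19 peaks had most of their input read ends under mapping quality 20.

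The 61 bases around the summit of Hist1h3e are shown with the same stretch of the other covered H3 genes, to show how close these copies are under the summit. They are coding, 5′ to 3′ in the direction of transcription, from GRCm38, and capitals mark bases that differ from Hist1h3e.
Hist1h3e: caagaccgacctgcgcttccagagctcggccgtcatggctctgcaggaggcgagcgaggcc
Hist1h3h: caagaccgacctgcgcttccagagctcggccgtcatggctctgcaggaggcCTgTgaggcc
Hist1h3g: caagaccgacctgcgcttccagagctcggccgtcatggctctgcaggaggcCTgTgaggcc
These windows lay on chromosome 13 at chr13:23562069-23562129 on the minus strand, chr13:21717895-21717955 on the plus strand and chr13:23535682-23535742 on the plus strand. Each of the other copies had 58 of 61 bases in common with Hist1h3e. The window held the summit in Hist1h3e and Hist1h3h, at 270 and 254 bp from the TSS, and began just past it in Hist1h3g, at 247 bp. The −log10 q in that order was 101, 83.6 and 65.7.

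The highest fold enrichment belonged to zinc finger protein genes. Zinc finger proteins of the KRAB type bind DNA and are known for silencing transposable elements, and their genes lie in clusters of near copies. The peak at Zfp990, 400 bp at chr4:145514807-145515206, had a fold enrichment of 18.4, a −log10 q of 48.4 and 3 input read ends. Rex2, Zfp600 and Zfp991 followed with 17.4, 17.1 and 15.4 over 7, 9 and 15 input read ends, all on chromosome 4. Slc2a3, for a glucose transporter, had 12.8 over 11 read ends, Gm21119 12.2 over 9, Zfp978 12 over 7 and 4930467E23Rik 11.6 over 4. Among coding genes named Zfp 62 of 385 were covered, 16.1% (12.6 to 20.2%), against 8.83% of all, and 34, 8.83%, at the outermost TSS against 3.78%. Their 61 peaks had a median fold enrichment of 3.40, and 82.0% of their summits lay downstream, with a median of 112 bp.

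Zfp990, Rex2, Zfp600, Zfp991 and Zfp978 lay in 1 cluster of chromosome 4, bounded after the values were seen, where 13 of 31 coding genes were covered, 41.9%. The fold enrichment of these 13 peaks ran from 6.29 to 18.4 with a median of 9.35, the summits lay 73 to 210 bp downstream, and the 1 kb around them held 2 to 32 input read ends, with a median of 9. In 6 of the 13, over 50% of these read ends had a mapping quality under 20. Another cluster, on chromosome 8 and bounded in the same way, had 3 of 8 genes covered, Gm21119, 4930467E23Rik and Gm15319, with a fold enrichment of 10.3 to 12.2 and the summit 100 to 131 bp upstream. All 3 had mostly low mapping quality in the input. Over all covering peaks, 22 had most input read ends under mapping quality 20, among them 9 of the 23 peaks with a fold enrichment of at least 8. The values of the single genes with mostly low mapping quality are uncertain, since reads from near copies may be placed at either. At Zfp990 none of the 3 input read ends was under quality 20.

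The bases near the TSS are shown for 4 covered genes of the chromosome 4 cluster whose windows have no UTR and align with that of Zfp990. Zfp981, Zfp982 and Zfp988 were chosen for this after their values were seen. Each of their windows was the stretch around the covered TSS with the most bases in common with Zfp990. The likeness was thus sought, and does not show how alike the promoters of the cluster are. Capitals mark bases that differ from Zfp990.
Zfp990: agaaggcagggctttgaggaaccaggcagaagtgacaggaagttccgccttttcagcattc
Zfp981: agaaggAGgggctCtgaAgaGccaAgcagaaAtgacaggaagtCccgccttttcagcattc
Zfp982: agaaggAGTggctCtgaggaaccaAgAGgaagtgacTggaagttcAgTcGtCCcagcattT
Zfp988: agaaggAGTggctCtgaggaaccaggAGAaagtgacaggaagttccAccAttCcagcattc
The windows lay at chr4:145514814-145514874, chr4:146514838-146514898, chr4:147492347-147492407 and chr4:147305571-147305631, all on the plus strand and before the covered TSS. Zfp981 shared 53 of 61 bases with Zfp990, Zfp988 51 and Zfp982 47. Their fold enrichment was 18.4 at Zfp990, 6.30 at Zfp981, 7.41 at Zfp982 and 6.59 at Zfp988. In the chromosome 8 cluster the 61 bases around the summit of Gm21119 recurred without a difference in all 3 genes, upstream of the TSS.
Gm21119: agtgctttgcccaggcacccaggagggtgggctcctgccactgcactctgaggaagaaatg
4930467E23Rik: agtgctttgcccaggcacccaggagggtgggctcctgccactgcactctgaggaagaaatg
Gm15319: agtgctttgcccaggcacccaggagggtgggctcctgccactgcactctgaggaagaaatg
They lay at chr8:20614785-20614845 on the plus strand, chr8:19729434-19729494 on the plus strand and chr8:20363284-20363344 on the minus strand, and each window held its gene's own summit. The −log10 q was 37.8, 33.6 and 38.7.

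**Figure D4:**
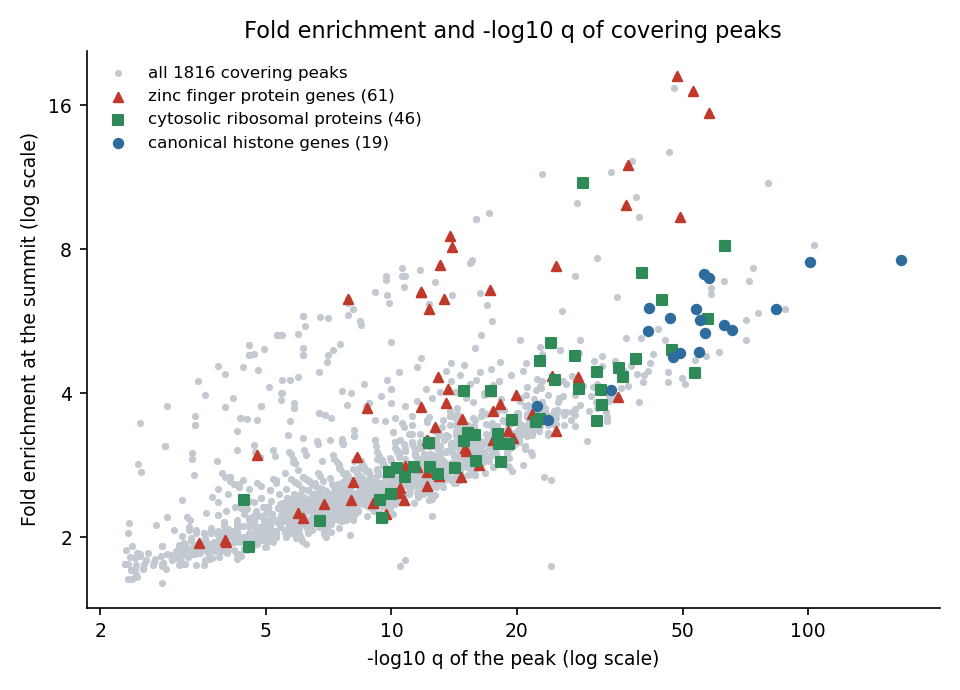
Fold enrichment at the summit against −log10 q of each covering peak, both on log axes; grey points are all 1816 covering peaks, triangles those at zinc finger protein genes, squares at cytosolic ribosomal protein genes and circles at canonical histone genes. Histone genes lie at the right, at a −log10 q of 22.4 to 167. The topmost point, at a fold enrichment of 18.4, is a zinc finger protein gene. The 61 peaks of that list spread down to 1.95, with a median of 3.40.

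Genes for the ribosome had the highest coverage by any coding TSS among lists of over 25 genes, though not by the outermost TSS, where canonical histone, Polycomb and mitochondrial ribosomal protein genes were higher. Of 74 cytosolic ribosomal protein genes 43 were covered, 58.1% (95% interval 46.1 to 69.5%), against 8.83% of all coding genes. With a −log10 q of at least 10 it was 37, 50.0% against 4.02%. The count depended on the TSSs used, since 9 of them, 12.2% against 3.78%, were covered at the outermost coding TSS. Their median number of TSS positions, 2, was that of all coding genes. It was 4 for the Polycomb genes and 3 for the genes of the HBO1 complex, other acetyltransferases and pluripotency factors described below, and coverage rose with this number, so that 8.83% is a low background for these lists. The 46 peaks had a median fold enrichment of 3.49, a median −log10 q of 18.7 and 75.5 input read ends. Rpl3 was highest, with 1 peak of fold enrichment 8.13 and −log10 q 63.3 and another of 11.0 and 28.8, the latter over 1 input read end. Rps12 had 5.71 and 57.4, Rps19 4.41 and 53.4, and Rpsa 4.93 and 47.2, with 79, 110 and 83 input read ends. The summit lay downstream in 33 of the 46. Mitochondrial ribosomal protein genes had 13 of 78 covered, 16.7%, and 12 at the outermost TSS, led by Mrpl35 with a −log10 q of 17.1, Mrpl12 with 17.0 and Mrpl13 with 16.7.

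Splicing factors and hnRNPs, which process newly made RNA, had 24 of 72 genes covered, 33.3% (22.7 to 45.4%), and 8, 11.1%, at the outermost TSS. Srsf2 had the highest −log10 q, 35.6, with a fold enrichment of 4.10 and a summit 482 bp downstream. Snrpd1, of the spliceosomal core, had 34.8 with 6.37, and Hnrnpab 30.7 with 3.47. Genes of the RNA polymerase II machinery, a list of subunits, general factors and cofactors, had 10 of 70 covered, 14.3%, and 7, 10.0%, at the outermost TSS. The highest were Polr2a, the largest subunit, with 28.3, Taf5 with 13.5 and Taf5l with 9.64. Oxidative phosphorylation genes had 12 of 72 covered, 16.7%, but 4, 5.56%, at the outermost TSS against 3.78%, and also 4 when −log10 q had to reach 10, against 4.02%. They were led by Uqcrq with 23.0, Atp5j with 18.6 and Ndufs7 with 11.8. DNA replication genes had 6 of 42 covered, 14.3%, and 2, 4.76%, at the outermost TSS, led by Orc2 with 15.8, Mcm7 with 13.8 and Rfc1 with 12.3. Proteasome genes had 4 of 37, 10.8%, and 2, 5.41%, at the outermost TSS, led by Psmd3 with 15.5, Psmd12 with 7.86 and Psmd1 with 5.87. Aminoacyl-tRNA synthetases had 2 of 19, Nars with 12.2 and Cars with 5.72, and none at the outermost TSS. The intervals by any TSS of the last 3 lists and of RNA polymerase II held the background of 8.83%.

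HBO1 peaks covered TSSs of the genes for its own complex. Of 9 subunit genes 5 were covered, 55.6% (95% interval 21.2 to 86.3%), and 3 at the outermost TSS. Jade1, an adaptor, had a −log10 q of 38.6 and a fold enrichment of 4.72. The summit lay 39 bp upstream of the nearest coding TSS but downstream of the outermost one inside the peak. Jade1 had a second covering peak of 1695 bp with 17.1 and 2.89. Kat7, the catalytic subunit HBO1 itself, had 22.4 and 4.28 with a summit 106 bp downstream. Among the BRPF adaptor genes Brd1 had 21.7 and 3.54, Brpf3 8.73 and 2.22, and Brpf1 6.61 and 2.21. Jade2, Ing4, Ing5 and Meaf6 were not covered. Of 14 other acetyltransferase genes 4 were covered, 28.6% (8.39 to 58.1%), an interval that held the background, and 2 of them at the outermost TSS. The 4 were Kat6b with 27.8, Clock with 16, Crebbp with 9.62 and Kat2b with 7.33, while Kat5, Kat6a, Kat8 and Ep300 were among those that were not.

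Of 24 genes for pluripotency factors 8 were covered, 33.3% (15.6 to 55.3%), and 4 at the outermost TSS. Sox2, the partner of Oct4 on composite sites, had a −log10 q of 72.3, a fold enrichment of 6.85, a peak of 1391 bp and a summit 51 bp upstream over 81 input read ends. Klf5 had 36.4 and 4.32, and Rif1 31.2 and 4.19. Sall4 had 25, Tbx3 17.8, Tfcp2l1 16.7, Klf4 8.32 and Nr5a2 7.37. The coding TSSs of Pou5f1, Nanog, Esrrb and Zfp42 were not inside a peak, with 103, 4, 34 and 42 input read ends around their outermost TSS. Of the 10 genes in a list of genes near MOREs 1 was covered, Polr2a, also at its outermost TSS. This share, 10.0% (0.253 to 44.5%), has an interval that held the background of 8.83%. The study picked some of these genes with these peaks in view, so the count is not independent evidence. A covered TSS is also a different measure from a peak near a MORE. The study describes HBO1 peaks at or next to Zmiz2 and Rras2 too, whose coding TSSs were not covered. At Polr2a the −log10 q was 28.3 and the fold enrichment 5.17. The summit lay 36 bp upstream of the nearest coding TSS, an inner one, but downstream of the outermost one inside the peak.

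Polycomb genes, whose products keep developmental genes silent, had 14 of 29 covered, 48.3% (29.4 to 67.5%), mostly by peaks of low −log10 q. Only 4, or 13.8%, remained at a −log10 q of at least 10, against a background of 4.02%, and 5, 17.2%, were covered at the outermost TSS. Mtf2 had 21.3, Cbx7 15.6 with a fold enrichment of 7.59 and no input read end around its summit, and Aebp2 14.8, and the lowest was Phf1 with 2.30. Their promoters had a median GC content of 71% against 56.0% over all coding genes.

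Developmental regulators and receptor families were counted in the same way. None of 39 Hox genes was covered, with an upper bound of 9.03% that still held the background of 8.83%. Their median promoter GC content, 55.3%, and input, 66 read ends, were close to or above those of all genes, 56.0% and 51. Their median number of coding TSS positions was lower, 1 against 2. Of all genes with 1 position 3.25% were covered, so 8.83% is a high background for this list. Of 47 lineage transcription factor genes 2 were covered, 4.26% (0.52 to 14.5%), an interval that held the background, and both were covered at the outermost TSS, against 3.78%. These were Cdx1 with a −log10 q of 12.4 and Mixl1 with 3.17. None of 1085 olfactory receptor genes and none of 326 vomeronasal receptor genes was covered, and both lists had a median of 1 input read end around the TSS, and the part of this low input in the counts was not tested. None of 16 fibroblast marker genes, which would mark feeder cells, was covered, with an upper bound of 20.6%, which held the background.

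**Figure D5:**
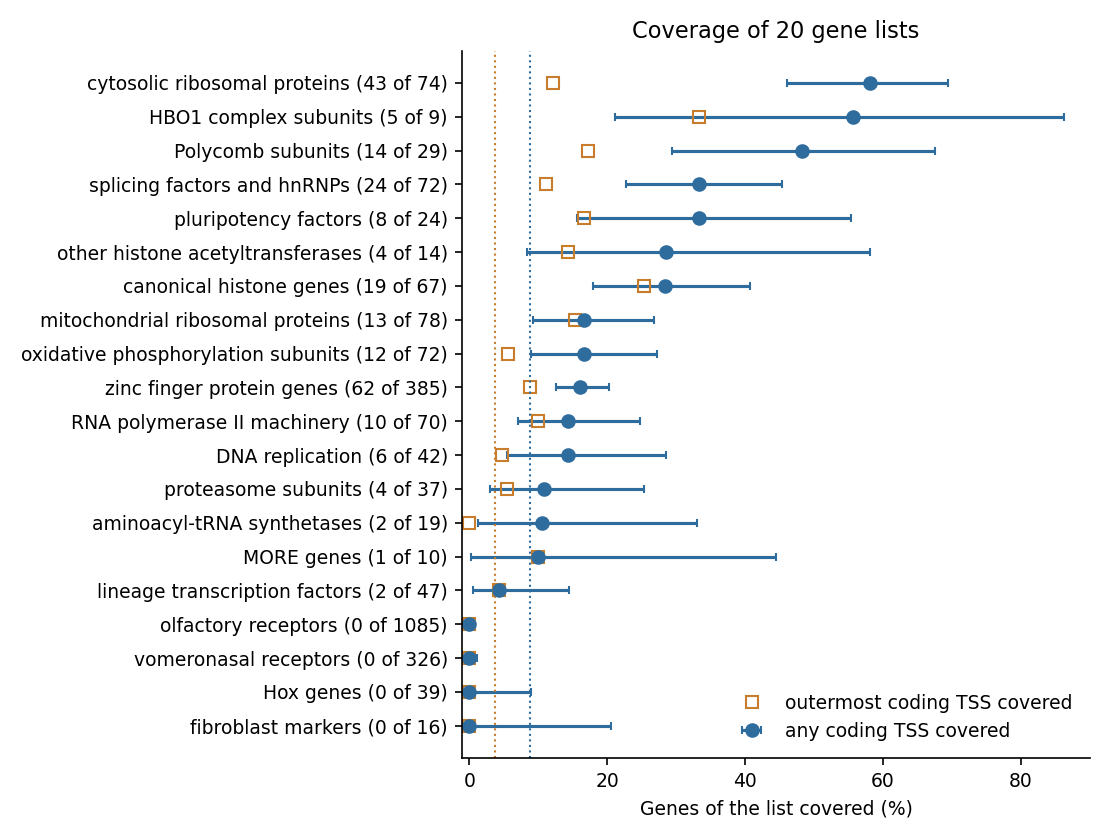
Share of each of 20 gene lists covered, in percent on the x axis, with the number of covered and all genes beside each name; circles count any coding TSS with exact 95% intervals, open squares the outermost coding TSS, and dotted lines mark the shares over all coding genes, 8.83 and 3.78%. Cytosolic ribosomal protein genes stand at 58.1% by any TSS and 12.2% by the outermost one, while 4 lists stand at 0.

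Among the widest covering peaks were those at Irf2bpl with 3107 bp, Ubtf, for a factor of ribosomal RNA transcription, with 2894 bp, Ptma, for prothymosin alpha, with 2298 bp, and Macf1 with 2145 bp. Their fold enrichment was moderate, 4.32, 4.23, 4.87 and 3.65, and their −log10 q 35.9, 40.1, 61.2 and 32.8. At Irf2bpl the summit lay 1738 bp downstream in the coding part of the first exon. At the other end, the covering peaks of lowest −log10 q were at Phf1 and Wwox with 2.30, Tacc1 with 2.31, and Rfx7 and Impact with 2.33, with fold enrichments of 1.76, 1.76, 1.88, 1.64 and 2.04. All but Rfx7, at 1072 bp, were no wider than 498 bp. Their −log10 q lay at or near the lowest of the whole peak list, 2.30.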

How the data were processed

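HBO1 ChIP-seq of 2 ChIP samples and 1 input from Oct1 deficient mouse ESCs was used. Per the labels, the authors used Novoalign 4.03.01, mm10 and MACS2, and how the ChIP samples were combined is not given in the sources used here. Each deposited peak has a ratio over local background (fold enrichment), a −log10 q, a score and a summit offset. The deposited input gives aligned read ends with a mapping quality score, 31973678 in all, with no normalization. Reads of the ChIP samples were not used here.

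TSSs came from GENCODE vM21 and sequence from GRCm38 (RefSeq). The 1816 covering peaks were found by a script checked on simulated data, where 641 of 641 planted TSSs among 2000 were found. A read end was placed at its midpoint and summed over 1 kb. The gene of a peak is that of the covered coding TSS nearest to the summit. Shares have exact binomial 95% intervals and medians order-statistic intervals. The 2 ChIP replicates have no separate values in the list used, so no p-value was computed. Python 3.11.15, pandas 2.3.3, scipy 1.17.1, pysam 0.24.0, samtools 1.23.1 and matplotlib 3.10.9 were used.

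Genes were named by rule: those of the 8 highest peaks by fold enrichment and by −log10 q, the 5 widest, the 5 with most genes and the 5 of lowest −log10 q, the top 3 of each list, all covered genes of lists of at most 25, and the 10 farthest inner promoters. Some genes that the rule names are not reported here. The members and the 20 lists were chosen with earlier results of these data known. Alternatives were thresholds of 5 and 10 on −log10 q, other TSS sets, an input limit, wider intervals and other windows.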

Additional observations from a re-analysis of the deposited data

How the results depend on the processing

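Of 41 recomputed values 20 stayed within the interval of the value reported, or within 1.5 times for the count of peaks, and 21 did not. At a −log10 q of at least 5 the share of genes covered was 7.37% and the median fold enrichment 2.79. At 10 there were 815 peaks, 4.02% of genes, 70.2% of summits downstream and a median fold enrichment of 3.18. With TSSs of GENCODE basic transcripts 7.21% of genes were covered and 73.3% of summits were downstream. With 1 outermost TSS per gene there were 739 peaks, 3.78% of genes, 81.6% of summits downstream, 5.14% of peaks at divergent pairs and a median GC content of 64.3%. With at most 100 input read ends around the summit, 6.06% of genes were covered, 70.7% of summits were downstream and the median fold enrichment was 2.81. Intervals extended by 100 bp gave 2974 peaks and 14.6% of genes. The peak midpoint lay downstream in 71.5% of peaks. Partners within 500 bp gave 5.67% at divergent pairs, and a window of 500 bp on each side of the TSS a median GC content of 63.5%. Thresholds and limits leave fewer peaks, and extension more, by construction, and for the other shifts the cause was not tested. In every setting that was run most summits lay downstream. Leaving out peaks with mostly low mapping quality in the input, an alternative chosen after seeing the data, moved none of the 6 results out of its interval. For lists with at least 1 covered gene, 12 of 32 recomputed counts were within 1.5 times of the count reported.

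No paired analysis was possible because the ChIP data used here are 1 peak list, read as pooling both ChIP samples, with no values per replicate, and for the same reason no replicate was left out. A TSS outside a peak is not shown to lack HBO1, and the intervals cover counting error only. Expression was not measured.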

Other observations

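By chromosome, the share of coding genes covered ran from 7.07% of 2009 genes on chromosome 7 to 10.5% of 1204 on chromosome 1. On chromosome 3 it was 9.97% of 642 genes before 100 Mb and 5.88% of 85 genes beyond the part left out, where the interval ran from 1.94 to 13.2%. The covering peaks had a median fold enrichment of 2.69 on chromosome 7 and 2.52 on chromosome 1.

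Outside the naming rule, and chosen after its values were seen, the peak at Trp53, the gene of the tumor suppressor p53, reached 9.99 in fold enrichment and 27.9 in −log10 q over 12 input read ends, with its summit 200 bp downstream in the first intron of a divergent promoter. Another was Rcc1, the exchange factor of the GTPase Ran, with 6.88 and 62.8 over 25 input read ends and a summit 104 bp downstream.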
